A study of Mus musculus with 5 samples.

Results

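The 7 tissue residency genes Cxcr6, Rgs1, Rgs2, Cd69, Itgae, Itga1 and Prdm1 were described in single T cells from the brains of 5 mice. They were taken by name from 15952 genes with at least 1 unique molecular identifier (UMI, a tag that counts each captured RNA molecule once) in the kept cells. A kept cell was a well sorted with 1 cell that held at least 400 UMIs outside spike-ins, of which at most 30% came from mitochondrially encoded genes. This left 1482 of 1900 single-cell wells. Every mouse was of the strain labelled Grl1loxP/loxP, in which the glucocorticoid receptor alleles are flanked by loxP sites, and every mouse underwent foot-shock stress, so the controls were stressed too. The libraries TAT-CRE 207, 208 and 215 came from mice aged 18, 18 and 19 weeks that had TAT-CRE recombinase, a cell-permeable Cre, injected into the brain ventricles. The libraries PBS 216 and 218 came from mice aged 19 and 16 weeks that had PBS injected by the same route. The design text names the choroid plexus as the place of receptor knockdown. That tissue was left out of the dissection, so the deleted gene could not be checked in its target cells. On day 14 after stress, CD45+CD11b-TCRβ+ cells of the brain parenchyma were sorted into 384-well plates. The CD8 or CD4 lineage was not sorted for. Each library was taken as 1 mouse, since the labels give each a replicate number of its own and do not state whether animals were pooled. The labels do not say whether the sorted cells were inside the tissue or still held in vessels after perfusion.

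Tissue-resident memory T cells stay in a tissue after an immune response and do not return to the blood. They keep down the receptors that draw T cells out along a sphingosine-1-phosphate gradient or into lymph nodes, and they carry adhesion molecules and chemokine receptors that hold them in place. In the brain such cells persist in the parenchyma and meninges, where Cxcr6, Cd69 and the collagen-binding integrin chain Itga1 are among their usual markers and Itgae, which pairs with Itgb7 to bind E-cadherin, is carried by some of them.

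The kept cells of the TAT-CRE mice numbered 311 (mouse 207), 303 (208) and 298 (215), and those of the PBS mice 296 (216) and 274 (218). In the same order, the median depth was 1953, 993 and 1600.5 UMIs for TAT-CRE mice, against 1410 and 2660 for PBS mice. TAT-CRE 208 stood apart from the other libraries. It was the shallowest, and ribosomal RNA took 28.3% of its kept UMIs, against 43.9% to 48.0% in the other 4 mice. Because a shallow cell shows fewer genes, shares of cells with a UMI are also given after thinning each cell to 400 UMIs. These 400 UMIs include ribosomal RNA, so its lower share in TAT-CRE 208 leaves more of them for other genes. The part of this in the thinned shares of that mouse was not tested. All kept cells reached 400 UMIs, so none was left out by thinning. No full cell barcode was shared between libraries. At least 1 of 8 T cell markers (Cd3d, Cd3e, Cd3g, Trac, Trbc1, Trbc2, Cd2 and Lck) had a UMI in 1359 cells, and the 8 genes summed to 3698 to 5110 CPM (counts scaled to the total of the library) in the TAT-CRE mice and 4024 to 4660 CPM in the PBS mice. Of 22 defining markers of other cell types, 16 had no UMI, and 136 cells (9.18%) had a UMI of any of the rest. The 6 B cell markers summed to 95.3 to 163 CPM in the TAT-CRE mice and 70.3 to 94.1 CPM in the PBS mice, with Cd79a and Ebf1 among those at 0. The 5 plasma cell markers summed to 24.6 to 51.0 CPM in the TAT-CRE mice and 59.5 to 59.6 CPM in the PBS mice, with Sdc1, Jchain and Mzb1 at 0. The 6 NK cell markers summed to 22.1 to 140 CPM in TAT-CRE mice, against 148 to 150 CPM in PBS mice. Gzma led them and Klra4 had no UMI. The part of such cells in the results was not tested, except by leaving those 136 cells out. This was done for the comparisons other than the one within Cd8-UMI cells. No residency gene was called by edgeR with or without the 136 cells, so no call could be lost.

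The promoters of the members on which the comparisons below turn are shown for reference, from RefSeq on GRCm38.p6, as the 250 bases before the start that RefSeq gives, 5′ to 3′ on the strand of the gene. Promoter entries were matched for 4 of the 7 genes (Cxcr6, Rgs2, Itga1 and Prdm1). Cxcr6 (chr9:123806227-123806476, plus strand) has 1 match to the Runx motif TGTGGT, in capitals as its complement. Rgs2 (chr1:144004150-144004399, minus strand) has 3 matches to the NF-kB motif, and Itga1 (chr13:115101965-115102214, minus strand) has 1, also in capitals.
Cxcr6: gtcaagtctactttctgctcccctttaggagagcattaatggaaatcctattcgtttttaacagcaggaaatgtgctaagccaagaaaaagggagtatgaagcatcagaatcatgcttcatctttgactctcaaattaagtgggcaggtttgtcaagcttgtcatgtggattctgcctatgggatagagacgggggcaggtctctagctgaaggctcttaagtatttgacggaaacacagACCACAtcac
Rgs2: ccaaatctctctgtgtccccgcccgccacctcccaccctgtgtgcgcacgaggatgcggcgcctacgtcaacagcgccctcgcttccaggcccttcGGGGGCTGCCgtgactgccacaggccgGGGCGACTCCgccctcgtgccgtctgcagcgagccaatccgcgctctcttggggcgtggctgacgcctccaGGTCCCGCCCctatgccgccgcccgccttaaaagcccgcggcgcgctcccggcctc
Itga1: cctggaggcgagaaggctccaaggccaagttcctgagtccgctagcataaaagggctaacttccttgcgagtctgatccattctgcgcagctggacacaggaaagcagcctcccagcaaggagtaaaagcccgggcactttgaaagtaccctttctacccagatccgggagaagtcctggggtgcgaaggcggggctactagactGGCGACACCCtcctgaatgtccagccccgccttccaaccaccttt
Both strands were searched. The Runx motif occurs in 14.0% and the NF-kB motif in 45.8% of all 32851 promoters of this length, so either match is common. The motif AGAACA, a part of the glucocorticoid receptor site, is present in 16.1% of all promoters. It was found in none of the 4 windows, which says only that these letters are not there. The full site was not searched for. The AP-1 motif TGANTCA (6.75% of promoters) was found once, in the window of Prdm1, whose RefSeq start lies inside the span that GENCODE gives for the gene, while the CRE motif TGACGTCA (1.55%) and the T-box motif AGGTGTGA (1.12%) had no match. The Rgs2 window is rich in G and C (72.4%), against 43.6% for Cxcr6 and 57.6% for Itga1.

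Cxcr6, the receptor for the membrane-bound chemokine CXCL16, was detected in more cells than any other residency gene. It had a UMI in 433 cells, or 29.2% (exact binomial 95% interval 26.9% to 31.6%, which covers counting error only, as do all such intervals here), and in an expected 15.1% after thinning. Of the 433 cells, 234 held at least 3 Cxcr6 UMIs and 1 held 39. The 20 empty wells, of 17 to 160 UMIs each, held 2 Cxcr6 UMIs in 2 wells and none of the other 6 genes, so background counts of Cxcr6 did occur. Shares also followed depth. Cxcr6 was found in 19.5% of cells with at least 400 but under 800 UMIs and in 42.4% of cells with 3200 or more.

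Rgs1 and Rgs2 encode regulators of G protein signalling, which speed the shut-off of G protein-coupled receptors, chemokine receptors among them. Rgs1 had a UMI in 281 cells (19.0%, interval 17.0% to 21.1%) and in 9.71% after thinning. Rgs2 was found in 177 cells (11.9%, interval 10.3% to 13.7%) and in 5.38% after thinning. Both lie on the minus strand of chromosome 1 in GENCODE M21 (mm10), 238 kb apart, Rgs2 at chr1:143999338-144004161 and Rgs1 at chr1:144242296-144249242. Rgs13 lies between them, and Rgs21 and Rgs18 beyond Rgs1. None of these 3 had a UMI in a kept cell. Of the other family members listed, Rgs10 (301 UMIs), Rgs19 (169), Rgs3 (78) and Rgs14 (54) had enough UMIs to be tested between groups.

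Cd69 encodes the lectin that holds the exit receptor S1PR1 off the cell surface. It had a UMI in 126 cells (8.50%, interval 7.13% to 10.04%) and in 3.69% after thinning. The integrin genes were rarer. Itga1, the alpha chain of the collagen receptor VLA-1, had a UMI in 66 cells (4.45%, interval 3.46% to 5.63%). Itgae, the CD103 chain, had only 23 UMIs in 13 cells (0.877%, interval 0.468% to 1.495%), never more than 3 in a cell. Prdm1, the gene of the transcriptional repressor Blimp-1, had a UMI in 47 cells (3.17%, interval 2.34% to 4.195%). Itgae was therefore the least often detected of the 7 and Cxcr6 the most often. The intervals of Itga1 and Prdm1 overlap, so their order is not settled at this depth.

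The other members lie at chr9:123806475-123811760 on the plus strand (Cxcr6), chr6:129267325-129275436 on the minus strand (Cd69), chr11:73090583-73147446 on the plus strand (Itgae), chr13:114953096-115101964 on the minus strand (Itga1) and chr10:44437177-44528501 on the minus strand (Prdm1). Cxcr6 lies inside Fyco1 on the opposite strand, and Itgae overlaps Haspin, also on the opposite strand. Whether counting used the strand is not given in the sources used here, so reads of these pairs may be shared. Fyco1 had 71 UMIs beside 1852 of Cxcr6, and Haspin 17 beside 23 of Itgae. Pelo, which overlaps Itga1 on the same strand, had no UMI.

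The first comparison was between TAT-CRE and PBS mice, over all kept cells. No residency gene passed a test between the groups, which with so few mice does not show that the levels were equal. Cxcr6 had a UMI in 36.7%, 20.8% and 23.2% of cells of TAT-CRE 207, 208 and 215, and in 29.1% and 36.9% of cells of PBS 216 and 218. After thinning these shares were 18.0%, 13.6% and 12.2% in the TAT-CRE mice, and 15.9% in each PBS mouse, so that the PBS values fell inside the TAT-CRE range. The thinned mean was 14.6% ± 3.05 (SD, n = 3) in TAT-CRE mice and 15.9% ± 0.00899 (SD, n = 2) in PBS mice (two-sided exact permutation p = 0.6). With 3 mice against 2 the smallest p this test allows is 0.1, so no share could pass a threshold of 0.05.

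Rgs1 was found in 26.0%, 19.5% and 16.8% of cells of the TAT-CRE mice, and in 19.3% and 12.4% of cells of the PBS mice. After thinning the shares were 11.8%, 12.2% and 8.19% in TAT-CRE mice, and 10.4% and 5.43% in PBS mice. PBS 218 was the lowest of the 5 on both scales, and the groups overlapped through TAT-CRE 215 and PBS 216 (thinned exact permutation p = 0.4). Rgs2 was found in 10.3%, 10.9% and 11.1% of cells of TAT-CRE mice, below the 13.2% and 14.6% of PBS mice (exact permutation p = 0.1). After thinning, the Rgs2 groups overlapped, with means of 5.39% ± 1.36 (SD, n = 3) in TAT-CRE mice and 5.35% ± 0.856 (SD, n = 2) in PBS mice (exact permutation p = 1). The highest thinned share, 6.94%, was that of TAT-CRE 208, the library with the least ribosomal RNA, and the part of this in the mean was not tested. Thinning to 800 UMIs gave 8.36% ± 2.51 for TAT-CRE mice, against 8.89% ± 2.06 for PBS mice (SD, n = 3 and 2), so the sign of the thinned difference depended on the depth chosen.

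Cd69 had a UMI in 11.6%, 6.27% and 7.38% of cells of TAT-CRE mice, and in 6.76% and 10.6% of cells of PBS mice. After thinning the shares were 4.65%, 3.85% and 3.55% in TAT-CRE mice, all just above the 2.88% and 3.48% of PBS mice (exact permutation p = 0.2). The difference was 0.838 percentage points, and TAT-CRE 215 and PBS 218 lay close together. The unthinned means ran the other way, at 8.41% ± 2.80 (SD, n = 3) in TAT-CRE mice and 8.67% ± 2.71 (SD, n = 2) in PBS mice. Itga1 averaged 1.94% ± 0.486 (SD, n = 3) in TAT-CRE mice and 1.98% ± 0.0747 (SD, n = 2) in PBS mice after thinning. Prdm1 averaged 1.12% ± 0.525 (SD, n = 3) in TAT-CRE mice and 1.39% ± 0.139 (SD, n = 2) in PBS mice after thinning. Itgae had 8, 2 and 2 UMIs in TAT-CRE mice, against 8 and 3 UMIs in PBS mice, too few to compare.

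**Figure D1:**
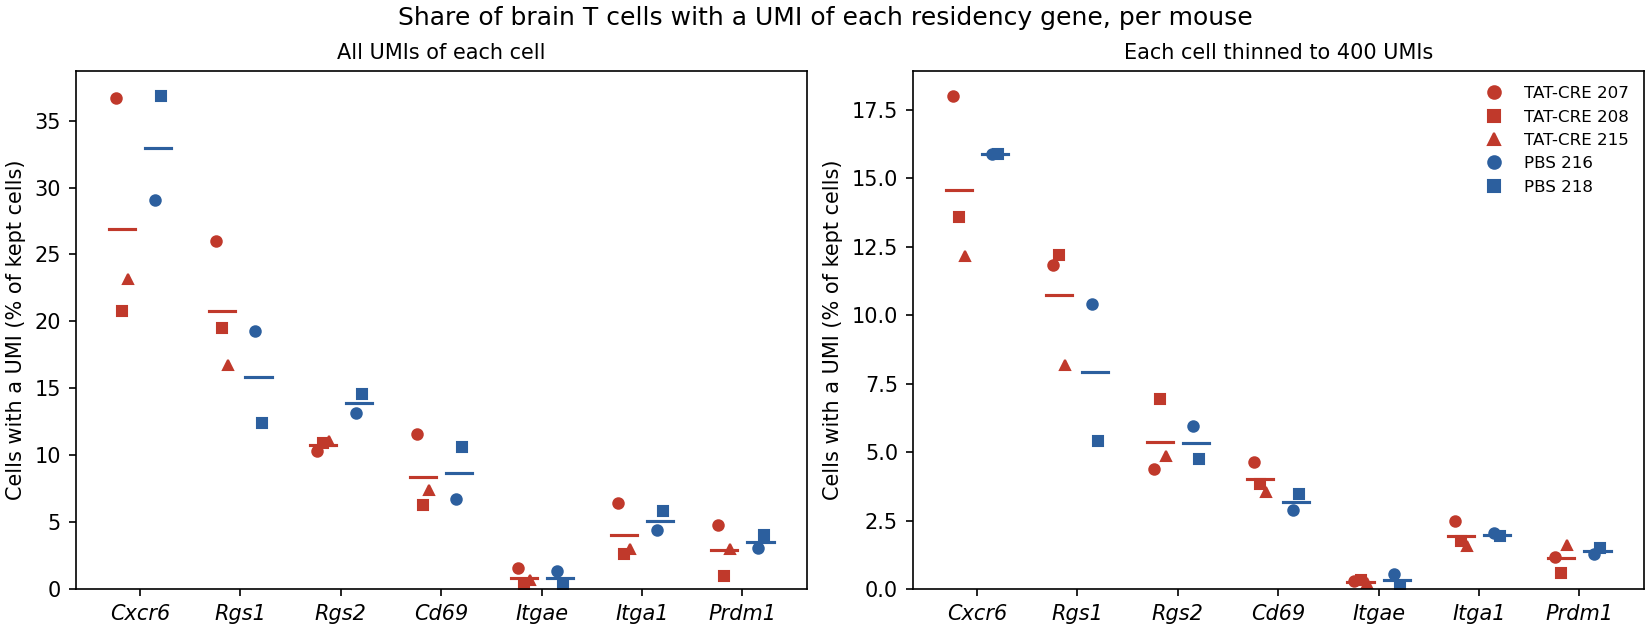
Share of kept cells with at least 1 UMI of each residency gene (percent), for each of the 5 mice, with all UMIs of a cell at left and the value after thinning each cell to 400 UMIs at right; bars are group means. TAT-CRE mice (red) and PBS mice (blue) overlap for every gene after thinning to 400 UMIs except Cd69, and the thinned Cxcr6 shares lie between 12.2% and 18.0%.

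Levels were compared on UMI counts summed over the cells of each mouse, scaled by TMM normalization to CPM and tested with edgeR's quasi-likelihood test, with Benjamini-Hochberg adjustment over all genes tested. In these summed data, fewer cells with a gene and less RNA per cell cannot be told apart. No gene passed an adjusted p of 0.05 (0% of 6341 genes). By edgeR 239 genes (3.77%) had an unadjusted p under 0.05, none of them a member, and DESeq2 called 1 gene, the interferon-induced Ifit3, which is no residency gene. Of the 7 members, 6 passed the filter on low counts and Itgae did not.

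Cxcr6 stood at 801, 561 and 496 CPM in TAT-CRE 207, 208 and 215, against 656 and 651 CPM in PBS 216 and 218. The 2 PBS values were almost equal and lay within the spread of the TAT-CRE mice, and the log2 fold change was -0.07 ± 0.23 (SE, adjusted p = 0.999). Rgs1 stood at 474, 432 and 342 CPM in TAT-CRE mice, and at 391.9 and 199 CPM in PBS mice, with PBS 218 alone below the rest. PBS 218 was also the deepest library per cell, and 102 of its single-cell wells fell under the UMI minimum, against 15 to 48 in the other mice; the part of this in the Rgs1 value was not tested. Its log2 fold change of 0.50 ± 0.30 (SE, adjusted p = 0.999) depended on which PBS mouse was kept. It was 0.09 without PBS 218 and 1.06 without PBS 216 (unadjusted p = 0.00854, edgeR adjusted p = 0.999). Rgs2 had 141, 262 and 263 CPM in TAT-CRE mice, and 256 and 162 CPM in PBS mice. The TAT-CRE values of Rgs2 enclosed both PBS values, with a log2 fold change of 0.09 ± 0.33 (SE).

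Cd69 was at 184, 129 and 164 CPM in TAT-CRE mice, and at 114 and 126 CPM in PBS mice. Each TAT-CRE mouse lay above both PBS mice, TAT-CRE 208 by a few CPM, and the log2 fold change was 0.41 ± 0.30 (SE, adjusted p = 0.999). Cd69 was the only one of the 6 tested members with such a separation, and 9.32% of all genes tested were higher in all TAT-CRE mice in the same way. Itga1 was at 107, 56.6 and 57.3 CPM in TAT-CRE mice, and at 92.0 and 61.2 CPM in PBS mice. Prdm1 was at 42.9, 13.6 and 45.5 CPM in TAT-CRE mice, and at 26.0 and 41.2 CPM in PBS mice. Both overlapped between the groups, with log2 fold changes of -0.04 ± 0.43 for Itga1 and 0.02 ± 0.65 for Prdm1 (SE). The SE of these rare genes leaves room for differences of over 1 log2 unit for Prdm1 and of nearly 1 for Itga1.

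**Figure D2:**
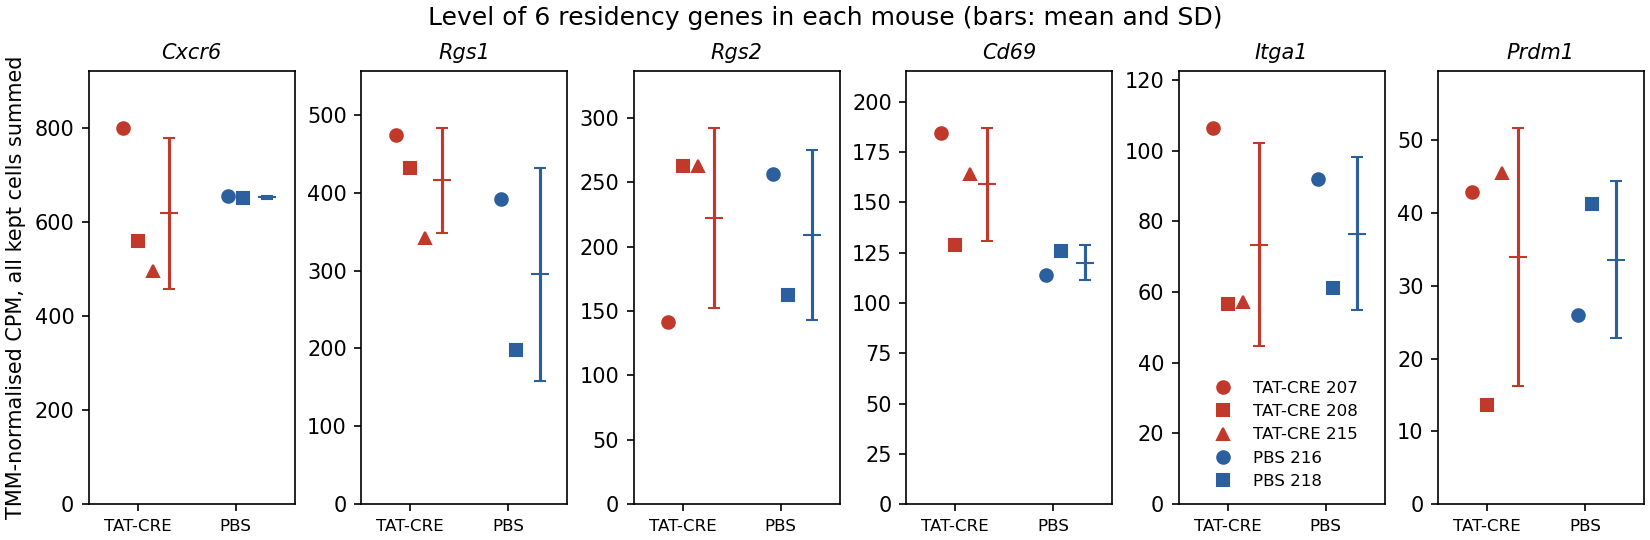
TMM-normalised CPM of 6 residency genes in UMI counts summed over all kept cells of a mouse, with each mouse as a point and the group mean and SD as a bar (TAT-CRE left, n = 3; PBS right, n = 2). Only Cd69 has every TAT-CRE mouse (129 to 184 CPM) above both PBS mice (114 and 126 CPM), and Rgs1 has PBS 218 apart at 199 CPM.

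Genes from a wider set of residency-linked genes were not called either. The list held 32 gene names, with a synonym among them, and included the transcription factors Zfp683 and Runx3. Of 22 tested, 15 had a positive and 7 a negative log2 fold change, with a median of 0.21, beside 0.00134 over all genes. Without PBS 218 there were 13 positive and 14 negative values with a median of -0.07, beside 0.075 over all genes in that fit. Without PBS 216 the median was 0.57, beside 0.056 over all genes, so its sign depended on PBS 218. The smallest unadjusted p-values belonged to genes with lower values in TAT-CRE mice. Vps37b averaged 39.9 ± 22.4 CPM in TAT-CRE mice and 94.8 ± 12.5 CPM in PBS mice (SD, n = 3 and 2), with a log2 fold change of -1.25 ± 0.48 (SE, adjusted p = 0.999). Xcl1, the gene of a chemokine that attracts cross-presenting dendritic cells, averaged 53.9 ± 11.7 CPM in TAT-CRE mice and 106.8 ± 23.8 CPM in PBS mice (SD), with a log2 fold change of -0.99 ± 0.39 (SE, adjusted p = 0.999). Inpp4b, a phosphoinositide phosphatase gene, averaged 181 ± 41.4 CPM in TAT-CRE mice and 272 ± 17.1 CPM in PBS mice (SD), with a log2 fold change of -0.59 ± 0.27 (SE, adjusted p = 0.999). For each of the 3 genes, all TAT-CRE mice were below both PBS mice, which held for 9.19% of all genes tested.

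A list of 23 names of egress and circulation genes, such as S1pr1, Ccr7 and Klf2, with a synonym among them, works against residency. Of 20 tested, 5 had a positive and 15 a negative log2 fold change in TAT-CRE mice, with a median of -0.23 and no call. Without PBS 218 the median was 0.061, so its sign depended on that mouse. The median over all genes in that fit was 0.075, so the list still lay just below it. The 5 integrin partner genes (Itgb1, Itgb7, Itgb2, Itgal and Itga4) had 3 positive and 2 negative values, the 8 tested genes of TGF-beta and interleukin-15 signalling 4 of each, the 4 tested Rgs relatives 2 of each, and the 4 tested counterparts of Prdm1 (Bach2, Batf, Id2 and Id3) 4 negative values. None was called.

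The same comparison within cells that had a UMI of Cd8a or Cd8b1 and none of Cd4 (Cd8-UMI cells) called none of 4013 genes (0%) with edgeR or DESeq2, and 123 (3.07%) had an unadjusted edgeR p under 0.05, none of them a member. The Cd8-UMI cells numbered 174, 76 and 125 in TAT-CRE mice, against 134 and 121 in PBS mice. Rgs1 stood there at 467, 393 and 389 CPM in TAT-CRE mice, and at 393 and 93.7 CPM in PBS mice. The single low value was again PBS 218, and PBS 216 lay among the TAT-CRE mice. The log2 fold change of Rgs1 was 0.80 ± 0.48 (SE, adjusted p = 1.00). It was 0.06 without PBS 218 and 2.14 without PBS 216 (unadjusted p = 0.000739, edgeR adjusted p = 0.999). Rgs2 had 126, 268 and 227 CPM in TAT-CRE mice, and 148 and 116 CPM in PBS mice, with a log2 fold change of 0.62 ± 0.42 (SE, adjusted p = 1.00). Cd69 overlapped between the groups in these cells, at 183, 126 and 176 CPM in TAT-CRE mice, and 125 and 141 CPM in PBS mice. Of the wider residency list the smallest unadjusted p-values belonged to Litaf, Vps37b and Xcl1, with log2 fold changes of -2.45 ± 0.86, -1.70 ± 0.75 and -1.05 ± 0.51 (SE), none with an adjusted p under 0.05. Without PBS 218 the values of Vps37b and Xcl1 were -0.62 and -0.65.

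The second comparison was between lineages within each mouse. A UMI of Cd8a or Cd8b1 without Cd4 was found in 630 cells (42.5%) and a UMI of Cd4 without Cd8a or Cd8b1 in 85 cells (5.74%). Both lineages had a UMI in 25 cells, and 742 cells (50.1%) had neither. The Cd4-UMI cells numbered only 22, 19 and 23 in TAT-CRE mice, against 13 and 8 in PBS mice. A missing coreceptor UMI does not show that a cell lacks the coreceptor. Cells with neither were shallower, with a median of 1315.5 UMIs, beside 1985.5 in Cd8-UMI and 1717 in Cd4-UMI cells.

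Among the 4 members whose level could be tested between lineages, Rgs2 had the largest difference. It had a UMI in 66 of 630 Cd8-UMI cells (10.5%, interval 8.20% to 13.1%) and in 25 of 85 Cd4-UMI cells (29.4%, interval 20.0% to 40.3%). Averaged over mice the share was 10.8% ± 1.92 in Cd8-UMI cells and 31.5% ± 11.7 in Cd4-UMI cells (SD, n = 5), lower in Cd8-UMI cells in 5 of 5 mice, with an exact sign-flip permutation p of 0.063, the smallest that 5 pairs allow. After thinning it was 4.64% ± 1.86 in Cd8-UMI cells and 13.6% ± 8.83 in Cd4-UMI cells (SD), lower in 4 of 5 mice (exact permutation p = 0.125). The exception was TAT-CRE 207, at 3.61% in Cd8-UMI cells and 3.10% in Cd4-UMI cells. Cells with neither UMI had 5.28% ± 0.844 (SD, n = 5), close to the Cd8-UMI value.

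In summed counts Rgs2 stood at 153, 359 and 273 CPM in Cd8-UMI cells of TAT-CRE 207, 208 and 215, and at 182 and 149 CPM in those of PBS 216 and 218. In Cd4-UMI cells it stood at 156, 792 and 1048 CPM in those of the TAT-CRE mice, against 1785 and 466 CPM in those of the PBS mice. The Cd8-UMI sum was the lower in each mouse, with almost no gap in TAT-CRE 207. In an edgeR fit with the mouse as a block the log2 fold change was -1.68 ± 0.44 (SE, unadjusted p = 0.00204), and the adjusted p of 0.247 over 728 genes missed the threshold. DESeq2 on the same counts called Rgs2, with a log2 fold change of -1.71 and an adjusted p of 0.0285. Over the other alternatives the adjusted p of Rgs2 reached 0.941 and the log2 fold change lay between -2.01 and -0.86. Of 4 members tested, Rgs2 alone was lower in Cd8-UMI cells in 5 of 5 mice, beside 3.16% of all genes tested. The early response gene Fos, named after its values were seen, was the other gene that DESeq2 called lower in Cd8-UMI cells, with a log2 fold change of -1.46 ± 0.40 (SE) in edgeR.

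Markers of other cells also differed between these classes. The 6 NK cell markers, led by Gzma, which cytotoxic CD8 T cells express too, summed to 40.9 to 199 CPM in Cd8-UMI cells and to 0 to 32.6 CPM in Cd4-UMI cells, with Klra4 at 0 throughout. The 4 gamma delta T cell markers, led by Tcrg-C2, summed to 81.4 to 229 CPM in Cd8-UMI cells and to 0 to 84.5 CPM in Cd4-UMI cells. Markers of 2 brain cell types averaged more in Cd4-UMI cells. The 4 oligodendrocyte markers, led by Mbp, summed to 49.1 to 138 CPM (mean 89.4) in Cd8-UMI cells and to 0 to 338 CPM (mean 170) in Cd4-UMI cells, with Mog and Mag at 0. The 4 endothelial markers, of which Pecam1 alone was detected, summed to 9.96 to 112 CPM (mean 47.7) in Cd8-UMI cells and to 0 to 374 CPM (mean 117) in Cd4-UMI cells. The ranges of both lists overlapped. The part of these 4 lists in the Rgs2 difference was not tested. Without the cells that held a defining marker of another cell type, the log2 fold change of Rgs2 was -1.62. Its edgeR adjusted p was then 0.499, against 0.247 with these cells.

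Itga1 had a UMI in 40 of 630 Cd8-UMI cells (6.35%, interval 4.57% to 8.55%) and in 0 of 85 Cd4-UMI cells (exact interval up to 4.25%; taking 3 counts as the limit that a count of 0 allows gives up to 3.53%). It was found in Cd8-UMI cells of 5 of 5 mice. After thinning it averaged 2.40% ± 0.891 in Cd8-UMI cells and 0% in Cd4-UMI cells (SD, n = 5). With no Itga1 UMI in any Cd4-UMI cell the direction in each mouse is fixed, so no test over mice is given. Within a single mouse the 8 to 23 Cd4-UMI cells allow, by the limit of 3 counts, shares of up to 13.04% to 37.5%. Itga1 did not pass the filter on low counts in these sums. A fit with no filter gave it an unadjusted p of 0.00025 and an edgeR adjusted p of 0.0600, and its fitted fold change against sums of 0 is no measure of size. In that fit the median log2 fold change of all genes was 1.28, against 0.07 with the filter. Cells with neither UMI had Itga1 in 25 of 742 (3.37%).

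No other member passed a test between lineages, which with few Cd4-UMI cells does not show that the lineages were alike. Cxcr6 was found in 34.8% of Cd8-UMI and 28.2% of Cd4-UMI cells, and after thinning averaged 16.5% ± 3.69 in Cd8-UMI cells and 13.3% ± 9.07 in Cd4-UMI cells (SD, n = 5, exact permutation p = 0.5). Its Cd4-UMI share ranged from 0.704% in PBS 216, with 1 of 13 cells, to 26.2% in TAT-CRE 208. Rgs1 averaged 10.2% ± 4.55 in Cd8-UMI cells and 12.98% ± 4.79 in Cd4-UMI cells after thinning (SD, n = 5, exact permutation p = 0.8125). In PBS 218 Rgs1 was in 9 of 121 Cd8-UMI cells but in 3 of 8 Cd4-UMI cells, and without that mouse the mean difference changed sign. Cd69 averaged 3.79% ± 0.430 in Cd8-UMI cells and 2.68% ± 2.98 in Cd4-UMI cells (SD, n = 5, exact permutation p = 0.5). Prdm1 was found in 29 of 630 Cd8-UMI and 3 of 85 Cd4-UMI cells, and Itgae in 5 and 1. In the edgeR fit the log2 fold changes were 0.47 ± 0.39 for Cxcr6, -0.50 ± 0.46 for Rgs1 and 0.85 ± 0.83 for Cd69 (SE, adjusted p of 0.927, 0.931 and 0.944). Single mice moved these values. Cxcr6 was at 1.05 without TAT-CRE 208 (unadjusted p = 0.00607, edgeR adjusted p = 0.472), at 0.75 without TAT-CRE 215 and at 0.19 without PBS 216. Cd69 was at 0.46 without TAT-CRE 207, 0.56 without PBS 216, 1.52 without PBS 218 and 1.86 without TAT-CRE 215. With no filter on low counts Cxcr6 was at 1.38 (edgeR adjusted p = 0.0748) and Cd69 at 1.86, to be read against the median of 1.28 over all genes in that fit.

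**Figure D3:**
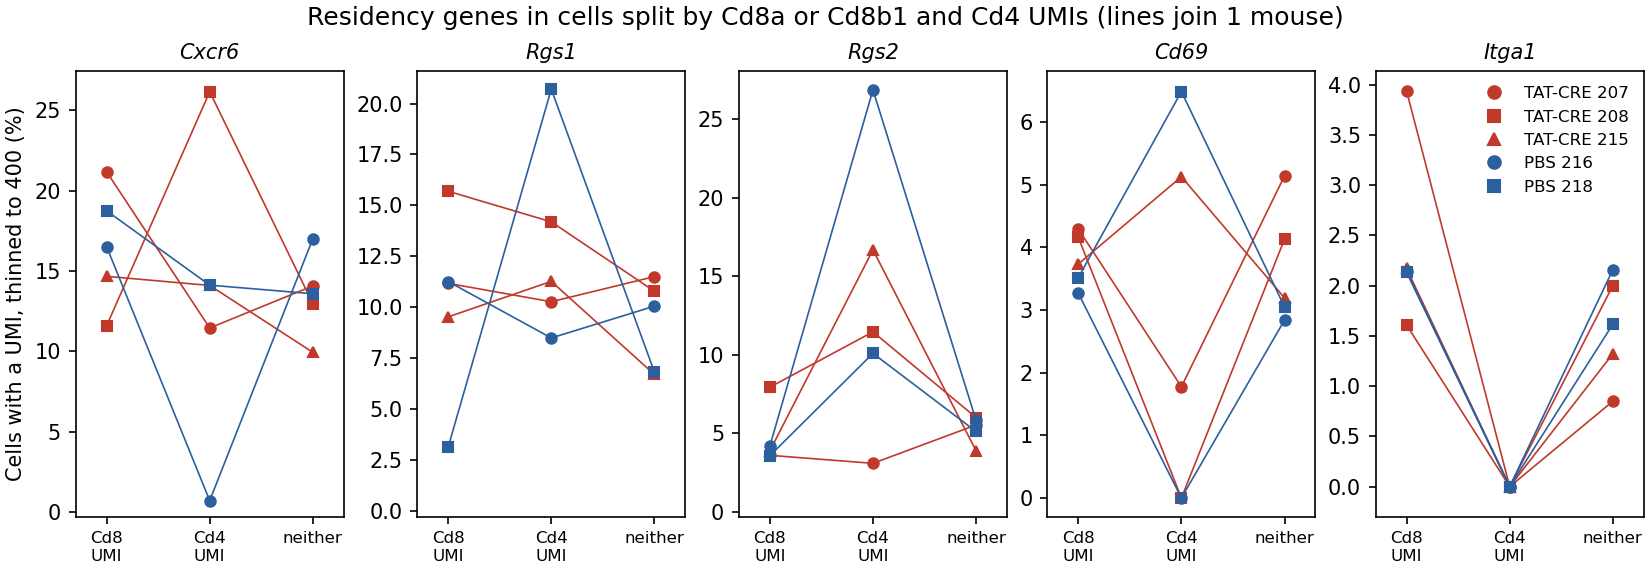
Share of cells with a UMI of 5 residency genes (percent, expected after thinning to 400 UMIs) in Cd8-UMI cells, Cd4-UMI cells and cells with neither, with a line for each mouse (red TAT-CRE, blue PBS). Rgs2 is lower in Cd8-UMI than in Cd4-UMI cells in 4 of 5 mice, and Itga1 is at 0 in Cd4-UMI cells of every mouse, which number 8 to 23 per mouse.

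The lineage fit called 2 of 728 genes (0.275%), both higher in Cd8-UMI cells, and 47 genes (6.46%) had an unadjusted p under 0.05. One call was Ly6c2, a memory and circulation marker of CD8 T cells, on the egress and circulation list. It averaged 901 ± 287 CPM in Cd8-UMI cells and 96.5 ± 69.5 CPM in Cd4-UMI cells (SD, n = 5), with a log2 fold change of 3.21 ± 0.48 (SE, edgeR adjusted p = 0.00432). Its near copy Ly6c1 may share reads with it, and the call was lost without TAT-CRE 215 (adjusted p = 0.118). The other call was the chemokine gene Ccl5, at 4376 ± 1260 CPM in Cd8-UMI cells and 1025 ± 589 CPM in Cd4-UMI cells (SD, n = 5), with a log2 fold change of 2.18 ± 0.20 (SE, edgeR adjusted p = 2.71e-05). Of 4 tested genes of the wider residency list (Icos, Inpp4b, Junb and Runx3), 1 had a positive and 3 a negative value and none was called.

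Co-detection was examined within each mouse, by setting the number of cells with both genes beside the product of the 2 shares. Cells of a mouse share a library and differ in depth, and deeper cells show more of every gene, so thinned counts are the better guide and no test was made. Of the 1482 cells, 690 had no UMI of any member, 521 had 1 member, 204 had 2, 54 had 3 and 13 had 4. At least 1 member was found in 62.7%, 46.5% and 47.0% of cells of the TAT-CRE mice, and in 53.7% and 57.3% of cells of the PBS mice, so the groups overlapped. The commonest states were Cxcr6 alone in 226 cells, Rgs1 alone in 132, Rgs2 alone in 69, Cxcr6 with Rgs1 in 64 and Cd69 alone in 53.

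After thinning, Cxcr6 and Itga1 had the highest ratio of all pairs of members, 2.09, and it lay between 1.77 and 2.41 in the single mice. Unthinned, 39 of the 66 Itga1 cells also had a Cxcr6 UMI, beside 20.8 expected, a ratio of 1.88 (counting interval 1.34 to 2.57). The cells came from every mouse, with 14, 2 and 5 cells from the TAT-CRE mice (207, 208 and 215), against 6 and 12 from the PBS mice (216 and 218). TAT-CRE 208, with 2 such cells, had the lowest unthinned ratio at 1.20. Other members were also found with Itga1 more often than the product of the shares. Rgs1 with Itga1 had a thinned ratio of 1.99, above 1 in 4 of 5 mice and from 0.403 to 4.64 over them, and an unthinned ratio of 1.25. Rgs2 with Itga1 had a thinned ratio of 1.43, above 1 in 3 of 5 mice, and 15 unthinned cells beside 7.97 expected, a ratio of 1.88 like that of Cxcr6.

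Cxcr6 with Rgs1 had a thinned ratio of 1.23, above 1 in 5 of 5 mice, and 100 unthinned cells beside 82.6 expected. Cxcr6 with Rgs2 had a thinned ratio of 1.29, above 1 in 4 of 5 mice, and 70 cells beside 52.3 expected. Rgs1 and Rgs2 were together in 43 cells beside 32.8 expected, with a thinned ratio of 1.39 that ranged from 0.774 to 1.86 over mice. Cxcr6 with Cd69 stood near the product of the shares, at 1.08, and ranged from 0.0836 in PBS 216 to 1.94. Cd69 and Itga1 were below it after thinning, at 0.379, but with 6 unthinned cells beside 6.05 expected. No cell held Itgae together with Itga1 or with Prdm1, where 0.642 cells were expected for Itgae and Itga1.

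**Figure D4:**
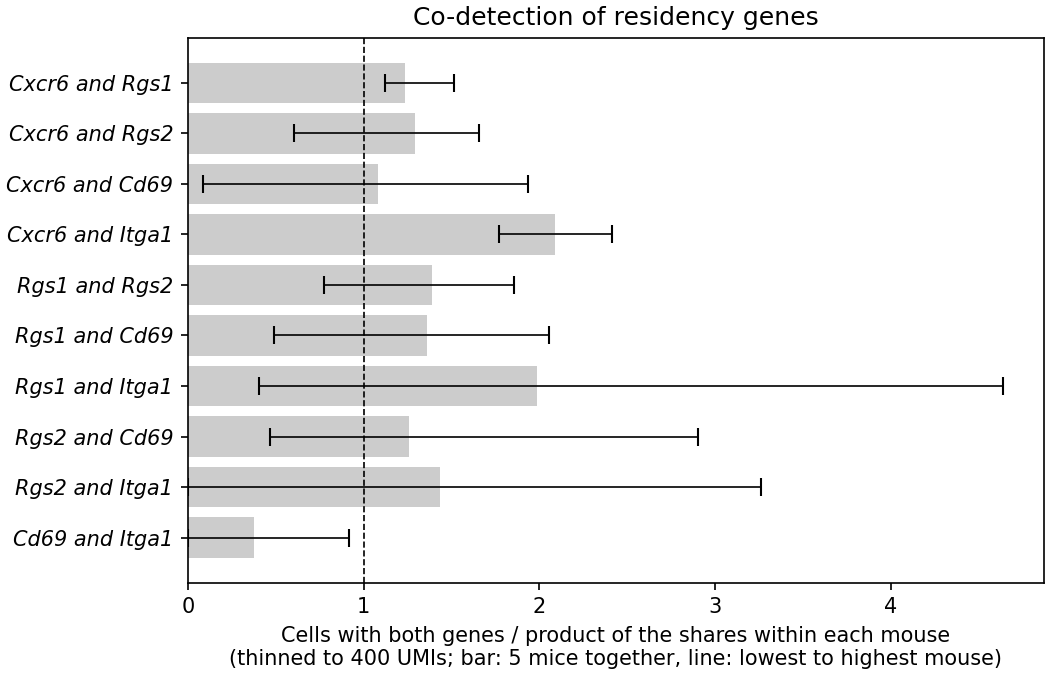
Cells with a UMI of both genes divided by the product of the 2 shares within each mouse, after thinning to 400 UMIs, for 10 pairs; bars give the 5 mice together and lines run from the lowest to the highest mouse, and the dashed line marks 1. Cxcr6 with Itga1 lies at 2.09 with all mice above 1, and Cxcr6 with Rgs1 at 1.23 with all mice above 1, while the lines of most other pairs cross 1.

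Likeness of detection over the 1482 thinned cells, centred within mouse, was weak for every gene and is given as a description. Among 507 candidate genes, the highest Pearson correlations with Cxcr6 were those of Ccl5 (0.10), Cd52 (0.10) and Nkg7 (0.09). For Rgs1 they were Dusp2 (0.09), Tbc1d10c (0.09) and Epsti1 (0.07), and for Rgs2 they were Mycbp2 (0.09), Snord14d (0.09) and Fos (0.08). The other members were in under 5% of thinned cells and were not ranked. The cells share library and depth, and correlations of this size in sparse counts are no finding.

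The third comparison set the 433 cells with a Cxcr6 UMI beside the 1049 cells without, within each mouse, with Cxcr6 left out of the test. Of the 433 cells, 138 held a single Cxcr6 UMI, and 2 of the 20 empty wells held a Cxcr6 UMI too. The part of background counts in this class was not tested. A missing Cxcr6 UMI does not show that a cell lacks Cxcr6. Cells with a Cxcr6 UMI were deeper, with a median of 2007 UMIs, against 1498 in cells without. Markers of other cells differed too. The 5 plasma cell markers, led by Xbp1, summed to 10.1 to 37.2 CPM in Cxcr6-UMI cells and to 35.4 to 82.0 CPM in cells without. The gamma delta T cell markers summed to 49.5 to 271 CPM (mean 148) in Cxcr6-UMI cells and to 49.7 to 147 CPM (mean 93.3) in cells without, and the NK cell markers to 19.3 to 269.7 CPM (mean 142) in Cxcr6-UMI cells and to 23.1 to 156 CPM (mean 97.1) in cells without. Their part in the values below was not tested. Without cells holding a defining marker of another cell type the log2 fold change of Itga1 was 1.12, which does not single out these lists. No gene passed an adjusted p of 0.05 in the edgeR fit with the mouse as a block (0% of 3467), 202 had an unadjusted p under 0.05 (5.83%), and DESeq2 called 4 genes (Ccl5, Id2, Izumo1r and Upf3b). Itga1 stood at 197, 65.6 and 105.8 CPM in the Cxcr6-UMI cells of TAT-CRE 207, 208 and 215, and at 129.7 and 108.9 CPM in those of PBS 216 and 218. In cells without a Cxcr6 UMI it stood at 48.5, 61.1 and 43.9 CPM in TAT-CRE mice, against 81.5 and 35.4 CPM in PBS mice. It was thus higher in Cxcr6-UMI cells in 5 of 5 mice, with a small gap in TAT-CRE 208, and the log2 fold change was 1.17 ± 0.40 (SE, unadjusted p = 0.0114, adjusted p = 0.654). Over the alternatives it lay between 0.70, in Cd8-UMI cells alone, and 1.40. Of all genes tested, 3% were higher in 5 of 5 mice, against 1 of the 5 members tested.

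Rgs1 averaged 427 ± 126 CPM in Cxcr6-UMI cells and 374 ± 131 CPM in cells without (SD, n = 5), with a log2 fold change of 0.23 ± 0.17 (SE, adjusted p = 0.976). Rgs2 averaged 249 ± 87.1 CPM in Cxcr6-UMI cells and 229 ± 62.2 CPM in cells without (SD), with a log2 fold change of 0.09 ± 0.20 (SE). Cd69 averaged 143 ± 88.6 CPM in Cxcr6-UMI cells and 155 ± 25.2 CPM in cells without (SD), and Prdm1 39.5 ± 16.2 CPM in Cxcr6-UMI cells and 36.2 ± 17.4 CPM in cells without (SD). The mice disagreed in direction for each of these 4 genes.

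Id2, a regulator of effector and resident T cells, averaged 1399 ± 150 CPM in Cxcr6-UMI cells and 980.5 ± 87.9 CPM in cells without (SD, n = 5). The 5 sums of Cxcr6-UMI cells, 1147 to 1525 CPM, all lay above the 5 of cells without, 875 to 1055 CPM. The log2 fold change was 0.51 ± 0.09 (SE, edgeR adjusted p = 0.0891), and the adjusted p was 0.0120 in DESeq2. Over the 15 alternatives, DESeq2 among them, the log2 fold change lay between 0.37 and 0.61. Id2 was called in 4 of them, and its adjusted p reached 0.992. Tcf7, the gene of the memory and naive factor TCF-1, averaged 296 ± 60.2 CPM in Cxcr6-UMI cells and 496 ± 90.5 CPM in cells without (SD, n = 5), with a log2 fold change of -0.73 ± 0.17 (SE, edgeR adjusted p = 0.306). Il7r, the interleukin-7 receptor gene, averaged 279.9 ± 108.9 CPM in Cxcr6-UMI cells and 410.4 ± 96.1 CPM in cells without (SD, n = 5), with a log2 fold change of -0.58 ± 0.17 (SE, edgeR adjusted p = 0.576). Tcf7 and Il7r were lower in Cxcr6-UMI cells in 5 of 5 mice, as were 5.31% of all genes tested.

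Of 14 tested genes of the egress and circulation list, 2 had a positive and 12 a negative log2 fold change in Cxcr6-UMI cells. The median was -0.60, beside -0.07 over all genes, and none was called. The lymph node homing receptor Ccr7 averaged 25.4 ± 40.7 CPM in Cxcr6-UMI cells and 81.9 ± 50.1 CPM in cells without (SD, n = 5), with a log2 fold change of -2.19 ± 0.70 (SE). The exit receptor S1pr1 had a log2 fold change of -0.80 ± 0.39, and its activator Klf2 one of -0.53 ± 0.25 (SE). The adjusted p of these 3 genes lay between 0.592 and 0.851. Of 13 tested genes of the wider residency list, 7 had a positive and 6 a negative value, with a median of 0.08. In that list Pdcd1, the PD-1 gene, had a log2 fold change of 1.17 ± 0.41 and Icos, a costimulatory receptor gene, one of -0.83 ± 0.35 (SE), with adjusted p of 0.722 and 0.796. Within Cd8-UMI cells alone, 9 egress and circulation genes were tested, 3 with a positive and 6 with a negative value, and the median was -0.86. With cells thinned to 400 UMIs only 2 genes of the list could be tested, 1 positive and 1 negative. Of the other lists, 2 of 8 tested genes of TGF-beta and interleukin-15 signalling and 3 of 5 integrin partner genes had a positive value, and both tested Rgs relatives, Rgs10 and Rgs19, had a negative one.

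**Figure D5:**
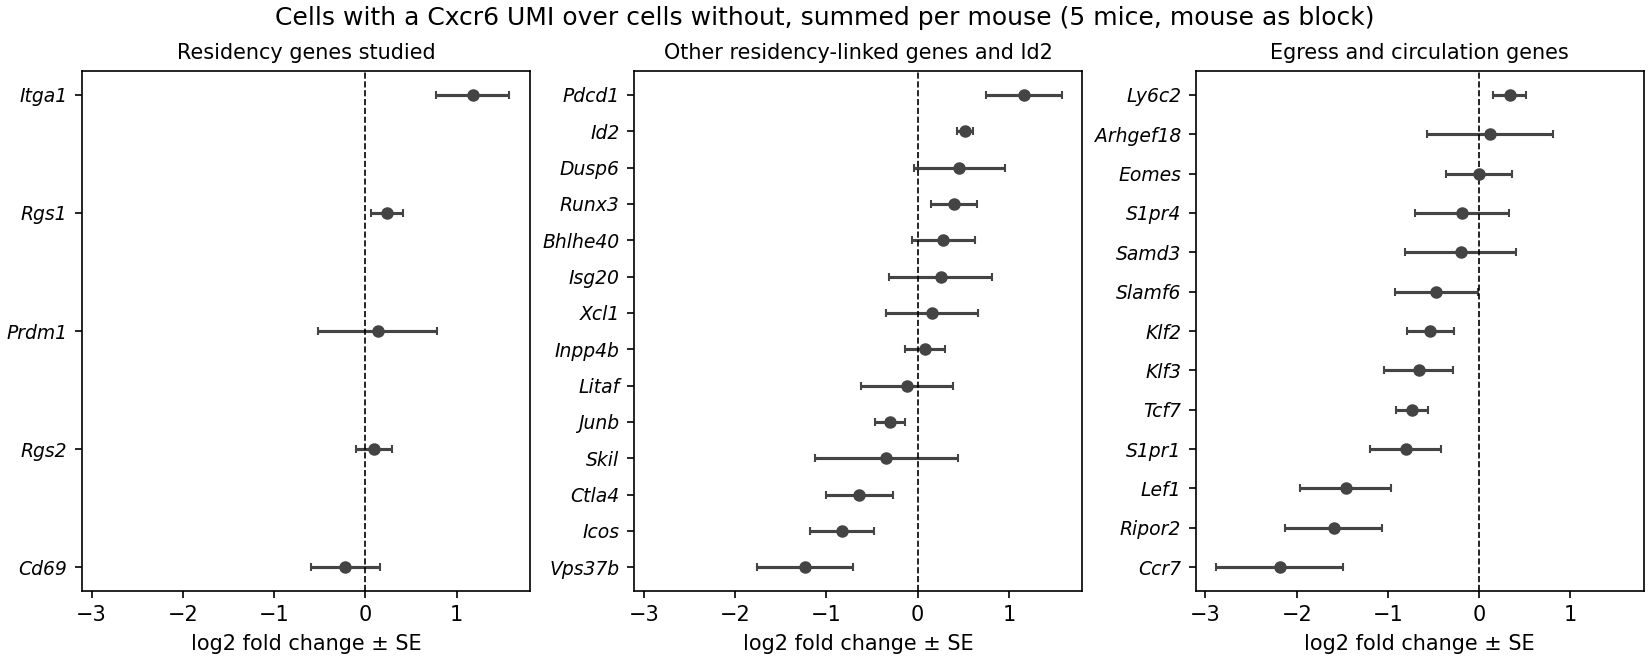
Log2 fold change with SE of cells with a Cxcr6 UMI over cells without, from UMI counts summed per mouse with the mouse as a block (5 mice), for 5 residency genes (left), the wider residency list and Id2 (middle) and 13 of the 14 tested egress and circulation genes (right); the dashed line marks no difference. Itga1 lies at 1.17, Id2 at 0.51 with the narrowest error, and 11 of the 13 egress and circulation genes drawn lie below 0, while no gene passed an adjusted p of 0.05.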

How the data were processed

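Brain T cells of 3 TAT-CRE and 2 PBS mice were profiled by plate-based single-cell RNA sequencing. The authors deposited raw UMI counts (genes by wells) with no normalization. They used bcl2fastq 2.15.0.4 and the build mm10, per the submitters' processing notes; which aligner and annotation were used is not given in the sources used here. Every deposited count column was used, and column and well were joined through the deposited well table.

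Counts of kept cells were summed per mouse (362457 to 839188 UMIs) and tested with edgeR 4.0.16 (TMM, filterByExpr, quasi-likelihood; R 4.3.3), adjusted by Benjamini-Hochberg over all genes tested, with a threshold of 0.05; DESeq2 1.42.0 was an alternative. The lineage and Cxcr6 comparisons had the mouse as a block, since both classes of cells came from the same mice, and left out the genes that define the classes. Shares after thinning are expected values of drawing 400 UMIs from each cell without replacement. Exact permutation tests over mice were two-sided. The tests were checked on simulated counts, where those of TAT-CRE against PBS mice missed most of the changes put in. The lineage and Cxcr6 fits missed most of the smaller changes put in and found most of the larger ones. A lack of calls in any of these fits therefore does not show equal levels. Each mouse had its own plate and library, so plate and mouse cannot be told apart; all were in 1 sequencing batch. Where libraries were not separate animals, the p-values measure only the spread between libraries.

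No doublet caller was run: wells were sorted with 1 cell each, per the labels of the well table. The members, lists and tests were chosen with earlier results of these data known. Named are the 7 members, list genes past an adjusted p of 0.05 (otherwise the 3 of smallest p) and, for members in at least 5% of thinned cells, the 3 genes most like them by Pearson correlation; Ccr7, S1pr1, Klf2, Pdcd1, Icos, Fos and Ifit3 were named after their values were seen. Some genes of the lists, although counted in them, are not reported by name here. Gene coordinates are from GENCODE M21; 15255 of 15952 genes with a UMI matched by name.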

Additional observations from a re-analysis of the deposited data

Results flagged for a closer look

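Of 14 groups of 5 mice examined (7 genes in Cd8-UMI and in Cd4-UMI cells, thinned), 4 had 1 mouse far from the other 4 by Dixon's criterion; chance gives about 1 in 20. One of the 4, Itgae in Cd4-UMI cells, meets the criterion by construction, since the other 4 mice were at 0, and says nothing against chance. Rgs2 in Cd8-UMI cells was found in 7.94% of cells of TAT-CRE 208, against 3.58% to 4.19% in the other 4 mice. Unthinned, Rgs2 had a UMI in 10 of the 76 cells of TAT-CRE 208 (13.2%, interval 6.49% to 22.9%). The unthinned shares of the other mice, 8.80% to 12.4%, lay inside that interval. Prdm1 in Cd8-UMI cells was found in 0% of cells of TAT-CRE 208 after thinning, against 1.55% to 2.11% in the others. Unthinned it had a UMI in 0 of its 76 cells, which allows up to 3.95% by the limit of 3 counts (exact interval up to 4.74%), against 3.20% to 6.90% in the others, so the gap to the lowest of them was not detectable at this depth. TAT-CRE 208 was the shallowest library and the one with the lowest share of ribosomal RNA; the part of these in either value was not tested. Itga1 in Cd8-UMI cells was found in 3.94% of cells of TAT-CRE 207, against 1.61% to 2.17% in the others. Itgae in Cd4-UMI cells was found in 0.527% of TAT-CRE 207, from 1 of 22 cells, against 0 in the others.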

How the results depend on the processing

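The comparisons of TAT-CRE with PBS mice called no residency gene under any alternative run. Over all kept cells DESeq2 called 1 gene and a fit with no filter on low counts 8; in Cd8-UMI cells the fit with no filter called 1; leaving out each mouse gave 0 calls in both. Members near 0 changed sign. With a mouse left out the log2 fold change ran from -0.30 to 0.071 for Cxcr6, from -0.21 to 0.44 for Rgs2, from -0.41 to 0.27 for Itga1 and from -0.26 to 0.40 for Prdm1. Rgs2 was at -0.045 without cells bearing markers of other cell types, an alternative chosen after seeing the data, and without the mitochondrial limit Itga1 was at 0.10 and Prdm1 at -0.34. In Cd8-UMI cells the ranges with a mouse left out were -0.22 to 0.21 for Cxcr6, -0.32 to 0.73 for Itga1 and -0.48 to 0.44 for Prdm1; Cxcr6 was at -0.033 with no filter and Prdm1 at 0.35 with a minimum of 800 UMIs. Differences of thinned shares (TAT-CRE minus PBS, percentage points) with a mouse left out ran from -0.74 to 0.64 for Rgs2, from -0.295 to 0.200 for Itgae, from -0.32 to 0.14 for Itga1 and from -0.52 to 0.0026 for Prdm1. With unthinned counts they were -3.14 for Rgs2, -0.26 for Cd69 and 0.011 for Itgae. Thinning to 800 UMIs gave -0.53 for Rgs2, and no mitochondrial limit 0.033 for Itgae and 0.193 for Itga1. The cause of these changes was not tested.

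Between lineages DESeq2 called 4 genes and a fit with no filter 57; leaving out a mouse gave 1 to 3 calls, with 1 without TAT-CRE 215. Rgs1 was at 0.31 with no filter and ran from -0.71 to 0.038 with a mouse left out. In shares (Cd8-UMI minus Cd4-UMI), leaving out a mouse gave -4.23 to 0.859 for Rgs1, -0.0016 to 0.108 for Itgae and -0.905 to 0.460 for Prdm1, and unthinned counts gave -0.255 for Itgae. Rgs2 was lower in Cd8-UMI cells under every alternative run. Between cells with and without a Cxcr6 UMI, DESeq2 called 4 genes, RLE normalization 1, no filter 15, no mitochondrial limit 2, ribosomal RNA left out 2 and thinning 2, and leaving out a mouse 0. None was a residency gene of the 7. Rgs2 was at -0.051 with no filter, -0.082 in Cd8-UMI cells only and -0.10 with a minimum of 800 UMIs. With a mouse left out Rgs2 ran from -0.0043 to 0.14, Cd69 from -0.47 to 0.11 and Prdm1 from -0.26 to 0.45.

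No paired analysis was possible between TAT-CRE and PBS mice because the groups share no replicate number. Without the replicate block the lineage fit called 2 genes, with Rgs2 at -1.92, and the Cxcr6 fit called 1 gene, with Itga1 at 1.20. Depth limits the rarest genes most: Itgae, with 23 UMIs, passed the filter on low counts in no comparison, and with no filter had an SE of 1.36 to 2.41 and adjusted p of 0.926 to 0.999.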
